A study of Mus musculus with 6 samples.

Results

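The Kruppel-like factors described here are 9 transcription factor genes, Klf2, Klf3, Klf4, Klf6, Klf7, Klf10, Klf11, Klf12 and Klf13, taken by name from the 23307 genes of the deposited table. RNA-seq was done on inguinal lymph nodes, which drain the flank and hind limb, pressed through a strainer into a cell suspension whose cell type is labelled lymphocytes. One group held 3 SJL mice given perampanel as a treatment, a drug used against epilepsy that inhibits AMPA receptors for glutamate, and the other held 3 SJL control mice. Experimental autoimmune encephalomyelitis (EAE), an induced disease used to model multiple sclerosis, was started in all 6 mice, and nodes were taken on day 3. The labels state neither age nor dose, nor what the controls received.

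Kruppel-like factors bind CACCC and GC-rich DNA through a tandem of zinc fingers at the C-terminal end of the protein, which are much alike between members. The rest of the protein sets what each member does: Klf2, Klf4, Klf6 and Klf7 mainly activate genes, Klf3 and Klf12 repress by recruiting the corepressor CtBP, and Klf10, Klf11 and Klf13 can recruit the corepressor Sin3A. In T cells, Klf2 is known for holding naive cells in a resting, recirculating state, where it is needed for S1pr1, the receptor for leaving the node.

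Klf3 was the only member called: by limma it stood at 1.32 times its control level in nodes of perampanel-treated mice. A member that was not called was not thereby shown to be unchanged. The call of Klf3 was lost in 6 of 20 alternatives, among them DESeq2 (adjusted p = 0.0605), quantile normalization and 4 of the 6 fits that left out 1 library. The alternative at an adjusted p under 0.1 was the same fit with a looser threshold, so the call could not be lost there. Klf2, the most abundant member, had nearly the same level in both groups, as did Klf7 and Klf10. Klf13 was 1.13 times its control level and Klf6 1.09 times, and neither passed the test. Klf4, Klf11 and Klf12 had too few reads to be tested. Of the 6 members tested, 1 was called (Benjamini-Hochberg adjusted p under 0.05 over 9076 genes), against 1.10% of all genes tested. A positive fold change was found in 5 of the 6, against 50.3% of all genes tested. The members were measured in the same libraries, so their signs are not independent.

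The start regions of the most abundant member, of the called member and of a gene that Klf3 is known to silence show where the family's own binding letters lie. The 300 bases around the RefSeq start (GRCm38.p6, 250 before and 50 after, 5′ to 3′) are given for Klf2 (chr8:72318812-72319111, plus strand), Klf3 (chr5:64803271-64803570, plus strand) and Lgals3 (chr14:47373610-47373909, plus strand). Capitals mark CACCC on either strand (read as GGGTG on the other) and, in Klf2, a match to the MEF2 site.
Klf2: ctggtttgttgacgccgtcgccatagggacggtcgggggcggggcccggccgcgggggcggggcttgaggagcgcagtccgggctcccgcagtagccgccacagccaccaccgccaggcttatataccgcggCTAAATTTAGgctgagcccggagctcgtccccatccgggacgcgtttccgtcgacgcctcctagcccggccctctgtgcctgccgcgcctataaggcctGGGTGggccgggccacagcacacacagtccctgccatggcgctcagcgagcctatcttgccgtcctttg
Klf3: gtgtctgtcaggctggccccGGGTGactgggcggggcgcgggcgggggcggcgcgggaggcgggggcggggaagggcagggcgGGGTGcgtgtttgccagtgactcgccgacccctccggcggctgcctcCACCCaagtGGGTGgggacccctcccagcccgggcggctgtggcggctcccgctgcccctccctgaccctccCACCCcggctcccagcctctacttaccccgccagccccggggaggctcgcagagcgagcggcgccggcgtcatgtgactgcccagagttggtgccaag
Lgals3: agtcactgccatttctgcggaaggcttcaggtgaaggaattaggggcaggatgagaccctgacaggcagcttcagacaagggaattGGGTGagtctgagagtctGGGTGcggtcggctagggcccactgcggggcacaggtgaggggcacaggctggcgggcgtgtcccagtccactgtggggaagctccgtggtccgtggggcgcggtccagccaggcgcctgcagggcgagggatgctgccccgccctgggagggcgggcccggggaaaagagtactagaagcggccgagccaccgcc
Klf3 held 5 CACCC matches, Lgals3 held 2 and Klf2 held 1. Of 32851 promoter windows of the same length, 57.5% held at least 1 match and 1.02% held 5 or more. The GC box, GGGCGG on either strand, was found 6 times in Klf3, partly overlapping the CACCC letters, and 2 times in each of Klf2 and Lgals3. Of all windows, 35.7% held it at least 1 time and 2.71% held it 5 or more times. G and C made up 76.7% of the Klf3 window, and the other windows were not matched for this. The MEF2 site, the element through which the MEK5-ERK5 pathway is known to drive Klf2, had 1 match in Klf2 and in 0.557% of all windows. Of the 9 members, 8 had a window in the table, and Klf10 had none. Among the others, Klf7 held 3 CACCC matches, Klf12 and Klf13 held 1 each, and Klf4, Klf6 and Klf11 held 0. These matches are letters in a window and were not measured as binding.

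Libraries held 1779724 to 2003726 gene reads in perampanel mice and 2036072 to 2208589 in controls, so every perampanel library was shallower. Mitochondrial transcripts took 10.3% to 10.8% of the reads under perampanel and 9.84% to 10.3% in controls. A floor of 3 reads is 1.36 to 1.69 CPM, for counting error only. T cell transcripts led: the 10 T cell markers summed to 13700 to 14320 normalized read counts under perampanel and 12760 to 13780 in controls. The 8 B cell markers summed to 500.2 to 550.7 under perampanel and 520.8 to 539.4 in controls, most of it Ighm. Endothelium is known to carry Klf2 and Klf4 at high level, and its defining markers had few reads. Pecam1, which T cells also carry, made up nearly all of the endothelial sum of 201.9 to 247.3 under perampanel and 180.8 to 212.2 in controls, and over all 6 libraries Cdh5 had 11 reads, Kdr 1, Vwf 1 and Prox1 2. The 9 stromal markers summed to 4.08 to 7.06 under perampanel and 0 to 3.67 in controls, with Ccl19 and Ccl21a at 0 reads. In a mixed cell suspension, more cells of a type and more RNA per cell cannot be told apart.

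Levels between members were compared as normalized reads per kilobase of annotated exon (GENCODE M21, GRCm38). Klf2 stood first at 339 ± 24.8 under perampanel and 332 ± 3.97 in controls (SD, n = 3 each), which was 69.1% ± 0.91 of the summed level of the 9 members under perampanel and 71.2% ± 0.54 in controls. Its lowest library, at 311, was well above the highest value of any other member, 54.2 for Klf13. Klf13 followed at 52.7 ± 2.43 under perampanel and 46.6 ± 2.22 in controls, then Klf6 at 42.5 ± 0.73 under perampanel and 39.0 ± 4.46 in controls. Control 2 had Klf6 close below Klf13, at 43.9 against 44.8, so these neighbours were not far apart in every library. Klf3 was at 27.7 ± 3.37 under perampanel and 20.9 ± 0.79 in controls. Klf7 was at 18.8 ± 1.13 under perampanel and 18.6 ± 1.70 in controls. Among controls, Klf7 reached 20.0, about the lowest control value of Klf3, so that pair was close there and apart in treated mice. Klf10 was at 5.55 ± 0.22 under perampanel and 5.83 ± 0.28 in controls. Klf11 was at 2.17 ± 0.53 under perampanel and 1.64 ± 0.78 in controls, and Klf4 at 2.15 ± 1.35 under perampanel and 1.23 ± 0.052 in controls. Klf11 and Klf4 did not differ beyond their spread. Klf12 was last, at 0.15 ± 0.011 under perampanel and 0.31 ± 0.15 in controls.

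The order from Klf13 to Klf3 depended on the length used. The annotated exons of Klf3 cover 11.2 kb, more than its longest coding transcript of 5.22 kb. With the longest coding transcript as length, Klf3 took 10.02% of the summed level in place of 5.06%, between Klf13 with 11.2% and Klf6 with 8.14%. Klf7 took 3.81% with that length and 3.91% with the exon length, so how close it was to Klf3 also depended on the length. Klf2 then took 64.5% in place of 70.2%.

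**Figure D1:**
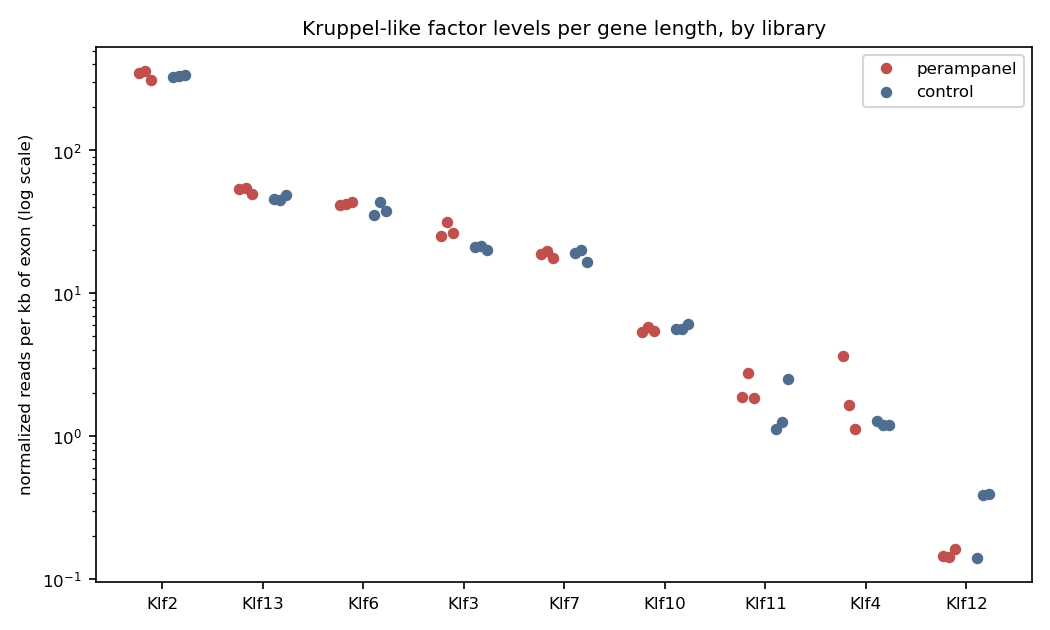
Normalized reads per kilobase of exon (log axis) of the 9 Kruppel-like factors in each library, perampanel to the left of control, genes in order of their mean. Klf2 sits above 300 in all 6 libraries, and Klf12 below 0.4.

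Among the activating members, Klf2 (chromosome 8, 72319033 to 72321656, plus strand, a single annotated transcript) had 645, 661 and 575 normalized read counts in perampanel mice 1 to 3, against 605, 616 and 619 in control mice 1 to 3. The controls, with a coefficient of variation of 1.19%, lay inside the range of the treated mice. The log2 fold change was 0.03 ± 0.07 (SE), with a 95% interval of -0.11 to 0.17. Klf6, an activator induced by injury and growth signals (chromosome 13, 5861482 to 5870394, plus strand), had 184, 187 and 190 under perampanel and 155, 193 and 166 in controls. The treated mice were tightly grouped, with a coefficient of variation of 1.73% against 11.4% in controls, and control 2 was above all of them. Its log2 fold change of 0.13 had an interval of -0.09 to 0.35. Klf7, known for its part in neuron development (chromosome 1, 64029447 to 64122282, minus strand), had 153, 161 and 143 under perampanel and 156, 163 and 136 in controls. The groups overlapped, with a log2 fold change of 0.01 (interval -0.22 to 0.25). Another gene, Gm26649, covers 3465 exon bases of Klf7 on the opposite strand, and it averaged 0.168 normalized read counts. Gm13748 covers 628 exon bases of Klf7, also on the opposite strand. Without strand, reads in these bases could not be told from those of Klf7, which may affect its level per kilobase.

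Klf4, which restrains T cell division and is better known as a pluripotency factor (chromosome 4, 55527143 to 55532466, minus strand), had 11, 5 and 3 reads under perampanel and 4 in each control library. Perampanel 1 held most of its reads in the treated group, and the other two treated mice were at about the control number. The ratio of reads, each scaled to its group's total, was 1.76, with a 95% exact binomial counting interval of 0.811 to 3.98. With genes of a mean of at least 1 normalized read count tested, its adjusted p was 0.815 by limma.

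**Figure D2:**
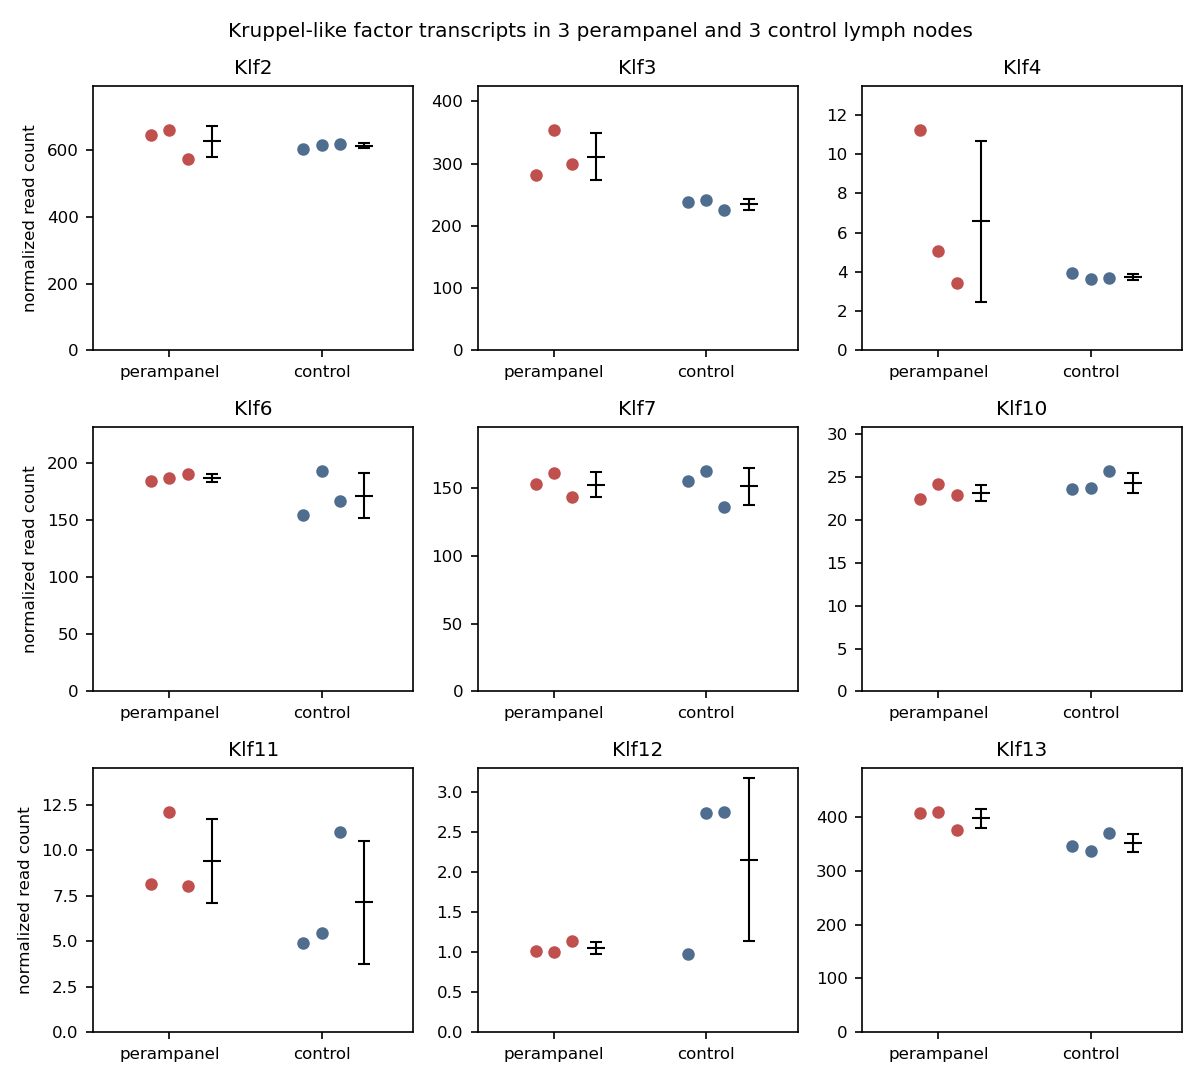
Normalized read counts (vertical axes from 0) of each of the 9 Kruppel-like factors in 3 perampanel mice (red) and 3 control mice (blue), with the group mean and SD in black. Klf3 and Klf13 have all 3 perampanel mice above all 3 controls, and the other 7 overlap.

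Klf3, the member that pairs with CtBP and silences genes in blood cells and fat (chromosome 5, 64803388 to 64832901, plus strand), had 281, 354 and 299 normalized read counts in perampanel mice 1 to 3, against 238, 242 and 225 in control mice 1 to 3. All treated mice were above all controls, with means of 311 ± 37.9 under perampanel and 235 ± 8.91 in controls (SD, n = 3 each). The spread among treated mice was wider than among controls, and perampanel 2 was the highest. The log2 fold change was 0.40 ± 0.10 (SE, 95% interval 0.20 to 0.59, limma adjusted p = 0.0318). On its own 6 values, the two-sided exact permutation p of Klf3 was 0.1, the smallest that 3 against 3 allows. Klf3 was also called by edgeR on recovered reads (adjusted p = 0.0225), where 1.17% of 9175 genes were called. DESeq2 gave 0.41 and did not call it (adjusted p = 0.0605), with 1.66% of 3018 genes called. The authors' deposited values, whose notes name DESeq2, give Klf3 a log2 fold change of 0.41, a standard error of 0.12 and an adjusted p of 0.0605. They rest on the same reads and are not a second result. With quantile normalization it was not called (0.38, adjusted p = 0.0808). The limma call was lost without perampanel 2 (log2 0.30, adjusted p = 0.235) and without any 1 control (0.37 to 0.42, adjusted p = 0.0766 to 0.121). Gm20033 lies across 404 exon bases of Klf3 on the opposite strand, and without strand its reads could not be told from those of Klf3.

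Klf12, the other CtBP-binding member, first described as a repressor of the AP-2 alpha gene (chromosome 14, 99870632 to 100284679, minus strand), had 1 read in each perampanel library and 1, 3 and 3 in controls. The ratio of scaled reads was 0.476 with a counting interval of 0.0795 to 2.09, so a difference was not detectable at this depth. Set beside Klf3, the corepressor gene Ctbp1 had 202, 176 and 211 normalized read counts under perampanel and 154, 155 and 179 in controls. Its groups overlapped by 1 library, and it did not pass the limma test (log2 0.27 ± 0.11, adjusted p = 0.394).

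**Figure D3:**
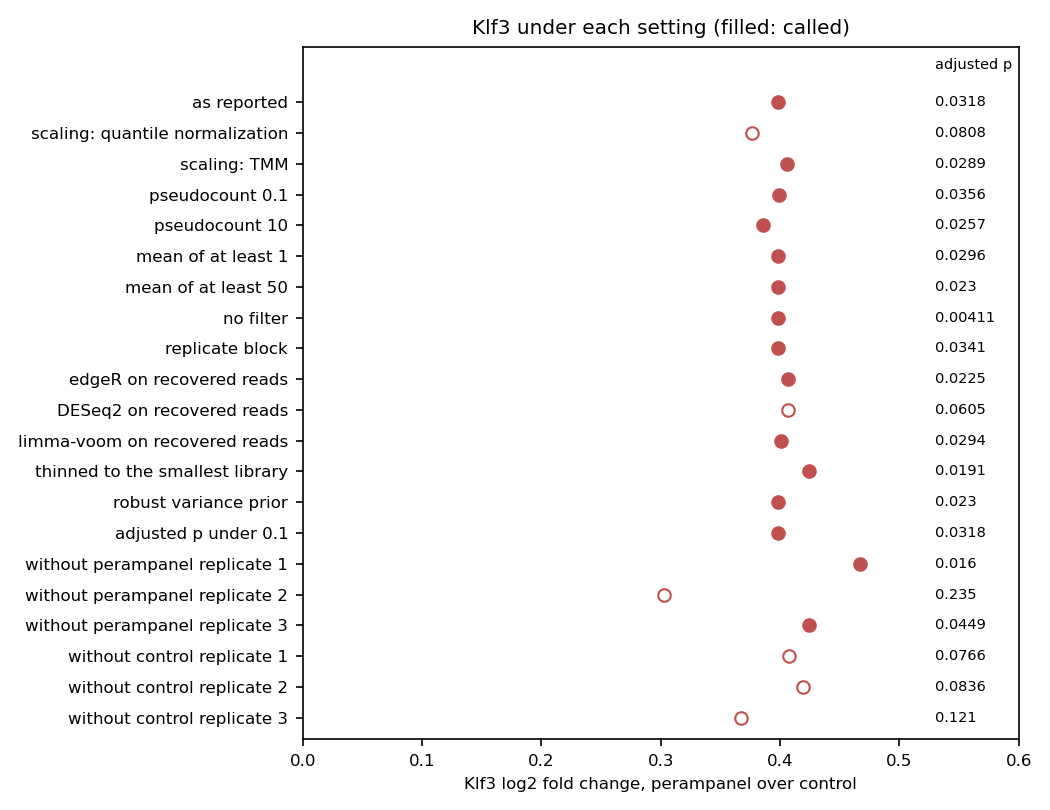
Log2 fold change of Klf3, perampanel over control (horizontal axis), under each setting, with the adjusted p at the right and filled circles where Klf3 was called. All values are positive, from 0.30 to 0.47, and 14 of 20 alternatives keep the call. They include the looser threshold of 0.1 on the same fit, where the call could not be lost.

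In the Sin3A-binding group, Klf13, which drives the chemokine gene Ccl5 in activated T cells (chromosome 7, 63886351 to 63938915, minus strand), had 406, 408 and 375 normalized read counts under perampanel and 345, 337 and 369 in controls. The groups did not overlap, though perampanel 3 and control 3 lay close together. The log2 fold change was 0.18 ± 0.08 (SE, interval 0.01 to 0.34), and with an adjusted p of 0.468 by limma it did not pass. With Klf3 it made 2 of 6 tested members whose treated mice all lay above all controls, against 7.18% of all genes tested. Klf10, an early response gene of TGF-beta (chromosome 15, 38291463 to 38300706, minus strand), had 22.4, 24.2 and 22.9 under perampanel and 23.6, 23.7 and 25.7 in controls. The groups overlapped, and its log2 fold change of -0.07 had a wide interval of -0.59 to 0.45. Klf11, its close relative (chromosome 12, 24651274 to 24662789, plus strand), had 8, 12 and 7 reads under perampanel and 5, 6 and 12 in controls, a ratio of scaled reads of 1.30 with a counting interval of 0.720 to 2.38.

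Klf3, the member called on these same values, was also set against each other tested member within the same library. The ratios use its values again, so they are no separate support for the call. The log2 ratio of Klf3 to Klf2 was -1.20, -0.90 and -0.94 in perampanel mice 1 to 3 and -1.35, -1.35 and -1.46 in control mice 1 to 3, without overlap. The means differed by 0.37 (two-sided exact permutation p = 0.1, the smallest that 3 against 3 allows, and 0.167 adjusted over 5 ratios). The ratios to Klf7 and Klf10 did not overlap either, with differences of 0.39 and 0.47. Those to Klf6 and Klf13 overlapped, with differences of 0.27 and 0.22, with an exact permutation p of 0.2 each. Summed over the 9 genes, Klf transcripts had 1711, 1813 and 1617 normalized read counts under perampanel and 1533, 1586 and 1559 in controls. Without Klf3 the sums were 1430, 1459 and 1319 under perampanel and 1294, 1344 and 1334 in controls, and overlapped.

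**Figure D4:**
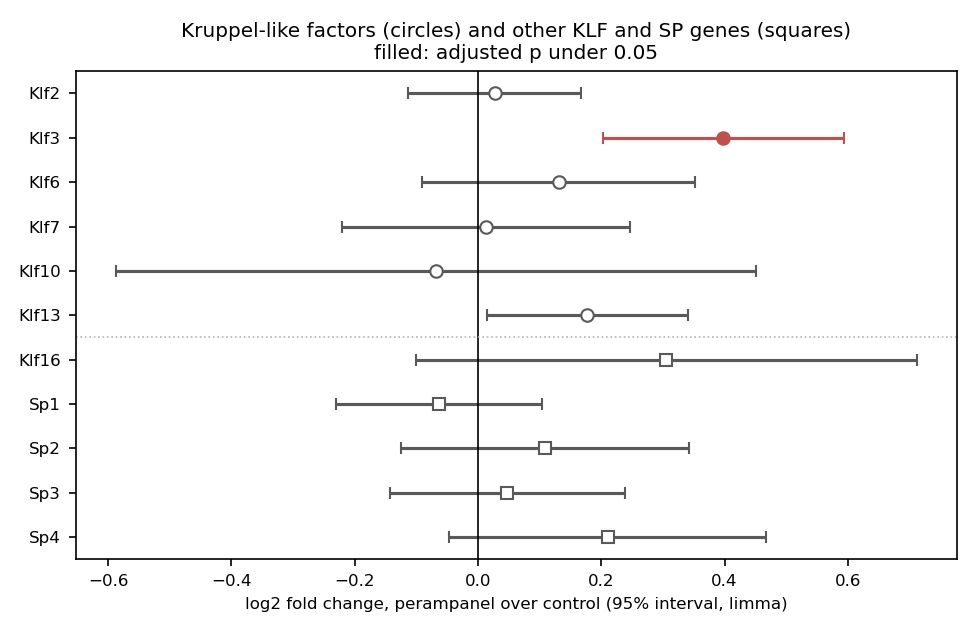
Log2 fold changes with 95% intervals by limma for the 6 tested Kruppel-like factors (circles, above the dotted line) and the 5 tested genes among the other KLF and SP genes (squares). Klf3 at 0.40 is the filled symbol, and among the others the interval of Klf13 alone does not cross 0.

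The zinc fingers make the members alike, yet their transcripts share little exact sequence. Between the longest coding transcripts of any 2 members, the longest identical run was 26 bases, in the coding sequences of Klf6 (chromosome 13) and Klf7 (chromosome 1), followed by 20 bases in those of Klf2 (chromosome 8) and Klf7. They are shown because they bound how far reads of different members can be alike over an exact stretch.
Klf6 and Klf7: gacaggtgtttctccaggtctgacca
Klf2 and Klf7: cacacaggtgagaagcctta
Of windows of 50 bases in coding transcripts, 0% of those of Klf2, Klf6, Klf10, Klf11 and Klf12 occur in a transcript of another gene. The share was 6.57% for Klf3, from Gm20033, Gm44888 and Ptn, and 38.2% for Klf7, from Gm26649 alone.

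Of the other genes of the zinc finger family, 16 were in the table and 5 were tested, with 0 called by limma, edgeR, DESeq2 or limma-voom and 0 at an unadjusted limma p under 0.05, where 9.33% of all genes stood. Klf16, a close relative of Klf13, had 44.9, 47.4 and 61.8 normalized read counts under perampanel and 34.4, 40.2 and 49.6 in controls, with a log2 fold change of 0.31 and an interval of -0.10 to 0.71. The broadly active Sp1, Sp2, Sp3 and Sp4, which bind the same GC boxes, were at -0.06, 0.11, 0.05 and 0.21. Klf16 was at 0.17 without perampanel 3 and 0.18 without control 1. Sp3 was at -0.01 without perampanel 3, and Sp4 at 0.08 without control 2. Klf14, Klf15 and Sp7 had 0 reads.

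Of genes upstream of the family, 0 were called by limma, edgeR, DESeq2 or limma-voom. Of 16 tested, 2 were at an unadjusted limma p under 0.05, against 9.33% of all genes tested. A positive fold change was found in 14, against 50.3% of all genes tested, with a median of 0.11 against 0.0014. These genes were measured in the same 6 libraries, so their signs are not independent. Foxo1, the factor that maintains Klf2 in resting T cells, had 634, 586 and 568 under perampanel and 571, 580 and 516 in controls (log2 0.10, interval -0.04 to 0.25). Tgfbr2, the receptor for the TGF-beta that induces Klf10, was at 0.15 (-0.04 to 0.33). Of 15 tested cofactor genes, 0 were called by the same tools, with 10 positive fold changes and a median of 0.05. At an unadjusted limma p under 0.05 stood 1 of the 15, against the same 9.33%. Sin3a, the corepressor of the Klf10 group, was at -0.12 (-0.40 to 0.16). Leaving out 1 library moved Sin3a between -0.27 without perampanel 1 and 0.01 without perampanel 2, so its direction was not stable. Without perampanel 1, Foxo1 was at 0.06 and Tgfbr2 at 0.08, and Foxo1 was at 0.05 without control 3. Tgfbr2 was at 0.23 without perampanel 3.

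Of 10 tested genes reported as targets of Kruppel-like factors, limma called Lgals3 lower and none higher. Of all genes tested, 1.10% were called in either direction. The 10 had 7 positive fold changes and a median of 0.03. At an unadjusted limma p under 0.05 stood 4 of the 10, against 9.33% of all genes tested. By edgeR and limma-voom 0 were called. DESeq2 called 1 of the 8 with an adjusted p, a gene other than Lgals3 that was higher under perampanel. Lgals3 encodes galectin-3, a sugar-binding protein, and is known as a gene that Klf3 silences (chromosome 14, 47367751 to 47386160, plus strand). It had 3.06, 6.05 and 1.15 normalized read counts in perampanel mice 1 to 3, against 15.7, 32.9 and 9.18 in control mice 1 to 3. All treated mice were below all controls, and the controls were uneven. Its log2 fold change was -2.19 ± 0.54 (SE, limma adjusted p = 0.0419) on 72 reads in all, and its mean reached the minimum of 10 only through the controls. The call was lost without perampanel 1 (-2.21, adjusted p = 0.0526), without perampanel 3 (-1.75, 0.0853) and without control 1 (-2.24, 0.150), and the gene was not tested without control 2. It was also lost with quantile normalization (-1.82, 0.130) and with a pseudocount of 0.1 (-2.55, 0.0566). The low counts kept it out of the edgeR and limma-voom tests, and DESeq2 gave -2.47 with no adjusted p. Macrophages carry this gene too. The 10 myeloid markers summed to 31.6 to 46.9 under perampanel and 28.3 to 38.4 in controls, with Cd14 and Adgre1 at 0 reads. The part of any cell type in the fall was not tested.

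S1pr1, the exit receptor that Klf2 supports, did not pass the test. It had 830, 754 and 660 under perampanel and 654, 675 and 650 in controls, with overlapping groups and a log2 fold change of 0.18 (interval 0.03 to 0.32, limma adjusted p = 0.394). It was at 0.10 without perampanel 1 and 0.26 without perampanel 3 (adjusted p = 0.759 and 0.0728). Plau, the urokinase gene that Klf6 is known to activate, had 0 reads in all 6 libraries.

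**Figure D5:**
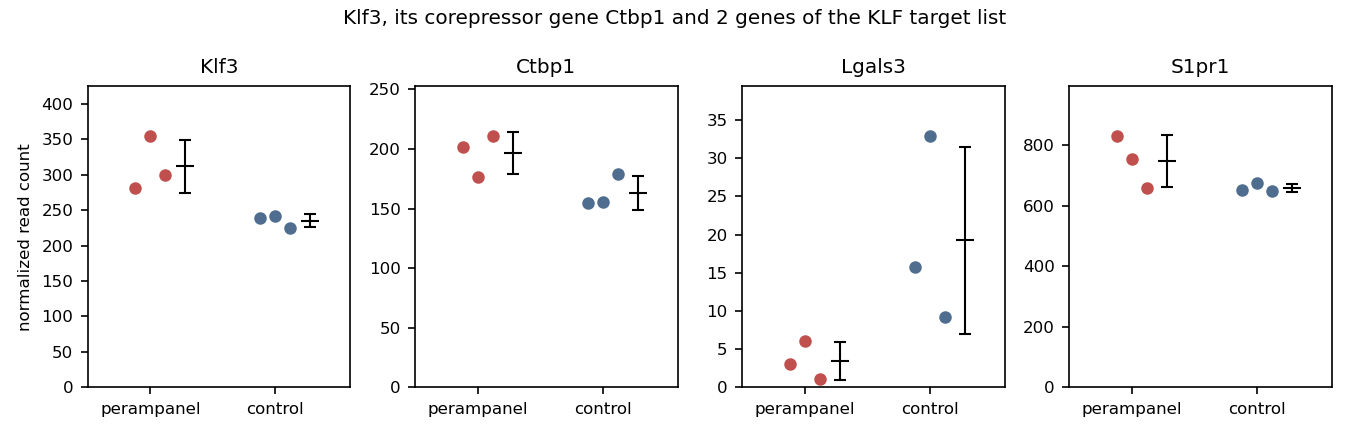
Normalized read counts (axes from 0) of Klf3, of the corepressor gene Ctbp1 and of Lgals3 and S1pr1 from the target list, in 3 perampanel mice (red) and 3 control mice (blue), with mean and SD. Klf3 has all perampanel mice above the controls, Lgals3 has them below, and Ctbp1 and S1pr1 overlap.

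Several Kruppel-like factor genes are early response genes that tissue handling can induce, so a list of immediate early and heat shock genes was set beside them. Of 10 tested, 0 were called by limma, edgeR, DESeq2 or limma-voom, with a median of 0.06. At an unadjusted limma p under 0.05 stood 2 of them, against 9.33% of all genes tested. The summed level of the list was 2049 to 2541 normalized read counts under perampanel and 2005 to 2312 in controls. Perampanel 2, the library highest in Klf3, also stood highest in several of these genes. Nr4a1 had 95.9, 199.7 and 98.5 normalized read counts in perampanel mice 1 to 3, against 84.7, 84.9 and 98.3 in control mice 1 to 3. Fos was at 85.7 in perampanel 2, against 41.8 to 62.1 in the other 5 libraries, and Dusp1 at 118 against 61.8 to 77.2. Not all genes of the list followed. Egr2 was lowest in perampanel 2, at 21.2 against 30.6 to 41.2 in the other 5 libraries. Jun in perampanel 2, at 125.1, was below control 2 at 126.9. Egr1 had 213, 255 and 292 under perampanel and 161, 176 and 228 in controls, with overlapping groups (log2 0.43, limma adjusted p = 0.0872). Klf3 in perampanel 1 and 3, at 281 and 299, was above all 3 controls too, and the part of handling in its level was not tested. The 10 T cell markers went both ways, with 5 positive and 5 negative fold changes and a median of 0.00. Of them Trac, a T cell receptor chain, had 5247, 5176 and 5196 normalized read counts under perampanel and 4455, 4640 and 4924 in controls, and was called (log2 0.16, limma adjusted p = 0.0304). That call was lost without perampanel 1, perampanel 3, control 1 or control 2 (adjusted p = 0.0584, 0.0691, 0.315 and 0.142) and with quantile normalization (0.0733). Cd8a, of cytotoxic T cells, had 138, 150 and 142 under perampanel and 192, 172 and 187 in controls. All treated mice were below all controls, and it did not pass (log2 -0.36, limma adjusted p = 0.130). Cd3e was at 0.01 and Cd3d at -0.03. The part of T cell makeup in the level of Klf3 was not tested.

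Over the 6 libraries, the genes whose log2 values followed Klf3 most closely among the 5523 others whose mean reached 50 were Carns1 (Pearson r 0.996, with a log2 fold change of 0.40), Cnbp (0.985) and Frmd8 (0.98). Those nearest to Klf2 were Arrdc1 (0.987), Sppl3 (0.97) and March5 (0.96). None of these 6 genes was called. With 6 points from the same libraries such values are a description, and 72 genes had an r over 0.9 with Klf3 and 32 with Klf2. Between tested members, r was highest for Klf3 with Klf13, at 0.75, and lowest for Klf6 with Klf10, at -0.38.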

How the data were processed

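The members and the gene lists were chosen with earlier results of these data known. Libraries came from polyadenylated RNA by a kit that does not mark strand, per the labels' protocols. The submitters' processing notes name DESeq2, DESeq and GRCm38, with aligner and counter not given in the sources used here. The deposited signal is read counts divided by 1 size factor per sample, and the table also holds the authors' log2 fold changes with standard errors, p-values, adjusted p-values and a Wald score, which runs against the sign of the fold in each of the 19321 genes that carry it. In the deposited values every non-zero signal was a whole multiple of the smallest one in its sample (100%, tolerance 1e-06), which gave back whole reads in all 6 samples. No other per-sample column was present.

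A gene entered the test when its mean reached 10 normalized read counts, as 9076 of 23307 did. The test was limma-trend (limma 3.58.1 under R 4.3.3), fitted to log2(value + 1) of all 6 samples and with no covariate beside treatment. Fold changes are on that scale, which understates changes of low genes. The values being normalized, a count test was not the main one. The limma p-values rest on the spread between mice, which limma pools with that of other genes of like level. For a single gene they thus do not measure its own spread alone. Alternatives on recovered reads used edgeR 4.0.16 (quasi-likelihood) and DESeq2 1.42.0, and others changed scaling, pseudocount, filter, variance prior, depth and samples. The tests were tried on simulated data. Named genes were all members, every called gene of the lists, the other KLF and SP genes with a mean of at least 10, S1pr1, Plau, Foxo1, Tgfbr2, Ctbp1 and Sin3a, and the 3 genes most like Klf3 and Klf2. One gene of the rule is not reported here. Other genes quoted as markers or from the handling list, and those at 0 reads, were chosen after their values were seen. NK cell markers (4 tested, none called, median log2 0.11) were also listed. Sequences are from RefSeq promoter windows and GENCODE M21 transcripts. Reads carry no molecular identifiers.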

Additional observations from a re-analysis of the deposited data

How the results depend on the processing

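Klf3 had a positive fold change under all 20 alternatives and kept its call in 14. The alternative at an adjusted p under 0.1 was the same fit with a looser threshold, so the call could not be lost there. The count of called Kruppel-like factors was 0 with quantile normalization and 0 with DESeq2, and 0 to 1 when 1 library was left out. Klf2, Klf6, Klf7, Klf10 and Klf13 were called under none of 19 or 20 alternatives each, with log2 ranges of -0.01 to 0.09, 0.06 to 0.22, -0.06 to 0.07, -0.24 to -0.03 and 0.15 to 0.22. Klf2 turned negative in 1 alternative and Klf7 in 2. Among all genes tested, 100 were called, 38 higher and 62 lower. The count was 179 with no filter (59 and 120), 50 with DESeq2 (31 and 19), 92 with a minimum mean of 50 (44 and 48), 78 with quantile normalization (25 and 53), 162 at an adjusted p under 0.1 (61 and 101), and 44 to 113 when 1 library was left out, with 44 without control 1 and 55 without control 2. Of the summed level per kilobase, the longest coding transcript as length gave Klf2 64.5%, Klf3 10.02%, Klf10 1.504% and Klf13 11.2%, against 70.2%, 5.06%, 1.19% and 10.4%. The cause of these differences was not tested.

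The replicate numbers were not used as pairs: deviations of same-numbered mice correlated at 0.033, 0.033 and 0.016, though each library correlated best with its own number. With the replicate block 103 genes were called and Klf3 was at 0.40 (limma adjusted p = 0.0341), so 1 member was called as before, Lgals3 kept its call (0.0161) and Trac lost it (0.0686). Klf4, Klf11 and Klf12 are limited by depth, with 31, 50 and 10 reads in all.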

Other observations

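Sp6, a relative of the Kruppel-like factors that is known from tooth and skin development, was named after its values were seen. It had 4, 4 and 5 reads in perampanel mice and 8, 17 and 15 in controls, without overlap. It was below the minimum for testing, and with a minimum mean of 1 its log2 fold change was -1.22 (limma adjusted p = 0.273).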
